A study of Mus musculus with 6 samples.

Results

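The 9 genes described here encode the parts of 3 vasoactive systems that set the tone of blood vessels: Agt and Ace of the angiotensin system, Edn1, Ece1, Ednra and Ednrb of the endothelin system, and Ptgs1, Ptgs2 and Ptgis of prostanoid synthesis. They were found by their symbol in a table of RPKM values (read numbers scaled by transcript length and by the mapped reads of the library), in which all 9 were present among 12623 genes, with 11 transcript rows between them. The libraries were made from endothelial cells (EC), the lining of blood vessels, sorted from lungs of C57BL/6N mice that the labels call infant (3 libraries) or young adult (3 libraries). The methods place infant mice in the second week and young adult mice near the third month of life. No treatment, engineered allele or transgene is named for either age group, and the methods describe the mice as female. Cells of both ages were taken from collagenase-digested lung by one gate, living cells positive for CD31 and CD34 and negative for PTPRC, LYVE1, LY76 and PDPN, so the libraries average over arterial, capillary and venous EC. In such bulk libraries, fewer cells of a type and less RNA per cell cannot be told apart. The comparison asks which vasoactive genes differ between EC of the growing lung and EC of the grown lung, in which vessels are largely at rest.

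Angiotensinogen, the product of Agt, is cut by renin to angiotensin I, which the membrane enzyme ACE, carried at high levels by lung capillaries, turns into the vasoconstrictor angiotensin II. Endothelin 1 is made as a long precursor that the enzyme ECE1 trims to the active peptide, which constricts vessels through EDNRA on smooth muscle and acts on EC through EDNRB, a receptor that also clears the peptide in the lung. The cyclooxygenases PTGS1 and PTGS2 make prostaglandin H2, and PTGIS converts this to prostacyclin, a dilator that also restrains platelets.

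Across the 3 systems, 5 of the 9 genes passed the test between the ages. Edn1, Ece1 and Ptgs1 rose from infant to young adult, and Agt and Ednra fell. Ednrb, Ptgis and Ptgs2 had overlapping values, and Ace was higher in all 3 young adult libraries by less than the fold threshold. A gene was called when limma on log2(RPKM + 1) gave an adjusted p under 0.05 and a fold change over 1.75, among 12458 genes that reached an RPKM of 1 in at least 1 library. All 9 genes passed that filter, Agt only through its infant values. By the same rule 11.4% of all tested genes were called, 3.33% as higher and 8.1% as lower in young adult EC. The adjusted p alone was under 0.05 for 6 of the 9 genes and for 25.5% of all genes, and the values of the age groups did not overlap for 6 of the 9 and for 43.4% of all. The median log2 fold change, young adult minus infant, was 0.25 over the 9 genes and -0.07 over all tested genes. Without infant replicate 2, a library that stood apart from the others of its age, 6 of the 9 genes were called, Ace being added, against 15.1% of all genes. These shares describe the 9 genes, which were chosen as parts of known systems, and test nothing.

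The promoters of the 5 genes that passed the test are shown because they are the stretches of DNA from which the changed transcripts start. They come from RefSeq on GRCm38.p6, run from 250 bases before the start site to 30 bases after it, and read 5′ to 3′ on the strand of the gene. Capitals mark matches to 7 motifs searched on both strands. The TATA box was searched as TATAAA and the motif of GATA factors as AGATAA. The AP-1 motif was searched as TGACTCA, the E-box as CACGTG and the motif of ETS factors as CCGGAAG. The GC box was searched as GGGCGG and the cyclic AMP response element as TGACGTCA. The 7 motifs do not contain one another. A match is a run of letters and not a known binding site. Agt lies on the minus strand at chr8:124569677-124569956 and has TATAAA 30 bases before its start. Edn1 lies on the plus strand at chr13:42301226-42301505 and has TTATCT, the reverse complement of AGATAA, from base 9 of the transcript on. Ece1, for the transcript in the table, lies on the plus strand at chr4:137861987-137862266 and has CCGCCC, the reverse complement of the GC box, from 5 bases before the start on. Ednra, on the minus strand at chr8:77724423-77724702, and Ptgs1, on the plus strand at chr2:36230176-36230455, hold none of the 7 motifs.
Agt: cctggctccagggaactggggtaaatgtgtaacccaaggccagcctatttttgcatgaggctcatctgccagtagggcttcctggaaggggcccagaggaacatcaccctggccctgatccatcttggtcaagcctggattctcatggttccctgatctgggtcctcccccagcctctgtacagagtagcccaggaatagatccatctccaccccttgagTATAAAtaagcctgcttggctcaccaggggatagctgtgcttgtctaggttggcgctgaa
Edn1: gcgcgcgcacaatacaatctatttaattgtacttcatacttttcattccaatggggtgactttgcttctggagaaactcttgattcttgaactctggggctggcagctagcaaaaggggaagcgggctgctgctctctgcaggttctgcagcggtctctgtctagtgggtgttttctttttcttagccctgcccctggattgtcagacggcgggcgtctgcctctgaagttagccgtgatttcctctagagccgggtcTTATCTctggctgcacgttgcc
Ece1: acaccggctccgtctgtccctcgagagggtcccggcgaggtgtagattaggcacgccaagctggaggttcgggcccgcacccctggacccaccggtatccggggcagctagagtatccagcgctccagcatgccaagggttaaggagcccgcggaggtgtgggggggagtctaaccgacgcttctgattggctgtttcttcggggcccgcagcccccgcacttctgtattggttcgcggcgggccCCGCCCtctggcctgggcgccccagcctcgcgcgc
Ednra: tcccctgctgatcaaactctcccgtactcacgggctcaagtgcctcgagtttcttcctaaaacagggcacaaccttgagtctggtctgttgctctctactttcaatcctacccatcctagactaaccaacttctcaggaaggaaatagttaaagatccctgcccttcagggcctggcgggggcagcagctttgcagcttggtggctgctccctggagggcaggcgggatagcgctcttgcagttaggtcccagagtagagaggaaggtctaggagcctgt
Ptgs1: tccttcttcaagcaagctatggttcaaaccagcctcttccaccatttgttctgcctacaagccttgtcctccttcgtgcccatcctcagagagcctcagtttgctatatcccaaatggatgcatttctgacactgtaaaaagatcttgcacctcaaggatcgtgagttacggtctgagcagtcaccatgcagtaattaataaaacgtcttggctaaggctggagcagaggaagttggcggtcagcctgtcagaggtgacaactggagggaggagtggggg

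In windows of the same length from 32851 RefSeq promoters, TATAAA was found in 13.1%, AGATAA in 10.7%, TGACTCA in 4.94%, CACGTG in 6.79%, CCGGAAG in 8.45%, GGGCGG in 34.7% and TGACGTCA in 1.74%. The Ece1 window had a GC content of 68.6% and 26 CpG dinucleotides, against medians of 52.5% and 6 over all promoters. The GC content was 55.0% for Agt, 51.8% for Edn1, 54.6% for Ednra and 49.6% for Ptgs1, and their CpG counts were 1, 11, 6 and 5. No motif was common to the 3 genes that rose or to the 2 that fell. The reference table had 12 promoters for 8 of the 9 genes and no entry matched Ptgis.

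Some properties of the libraries touch the values that follow. The 11 endothelial markers, Pecam1 and Cdh5 among them, summed to 2046.3 to 2962.5 RPKM in infant and 3166.1 to 3407.2 in young adult libraries, and none of them was at 0 in any library. Of the 11, 9 were higher in young adult libraries (2 called) and 2 lower (0 called), with a median log2 fold change of 0.33. The part of this general endothelial rise in the rises described below was not tested. Epithelial markers summed to 6480.7 to 11334.9 RPKM in infant and 1833.7 to 8364.5 in young adult libraries, above the endothelial sum in each library but young adult replicate 1. Of 9 epithelial markers 8 were lower in young adult libraries (3 called) and 1 was called higher, and Epcam was at 0 in at least 1 library. Leukocyte markers were lower in young adult libraries for 8 of 8 genes (3 called), with sums of 316.5 to 513.3 against 139.7 to 551.9 RPKM. Lyve1, whose protein the gate excluded, had 68.6 to 171.4 RPKM in infant and 252.9 to 396.4 in young adult libraries and was called higher. Of 5 tested lymphatic markers Lyve1 alone was higher, and 4 were lower (0 called). Ptprc, whose protein the gate also excluded, had 3 to 7 RPKM in infant and 0.2 to 1.8 in young adult libraries and was called lower. The part of these transcripts in the results was not tested. Infant replicate 2 stood apart from the other infant libraries, with a Pearson correlation of at most 0.964 to any library, against 0.987 between infant replicates 1 and 3. Its correlation to the young adult libraries was 0.949 to 0.963, nearly that to the other infant libraries (0.963 and 0.964). Infant replicates 1 and 3 correlated with the young adult libraries at 0.896 to 0.912. Fibroblast markers were lower in young adult libraries for 11 of 11 genes (10 called), with summed RPKM of 1356.1, 341.2 and 952.4 in infant replicates 1 to 3 and of 12.1 to 25.5 in young adult libraries, and no fibroblast marker was at 0 in any library. Mural markers were lower for 10 of 10 (9 called), with sums of 178.4, 64.1 and 196.7 against 11.9 to 17.3, and Cspg4 was at 0 in at least 1 library. Globin transcripts took 11, 3.41 and 23.5% of all RPKM in infant replicates 1 to 3 and 0.307 to 0.487% in young adult libraries. The Y-linked genes Ddx3y, Eif2s3y, Uty and Kdm5d reached 2.1 to 21.9 RPKM in infant libraries and were listed at 0 in all young adult libraries, which goes against a female origin of all mice. Xist, the RNA of the inactive X chromosome, had 7.6 to 8.7 RPKM in infant and 12.5 to 15.6 in young adult libraries. Each infant library thus held both Y-linked transcripts and Xist. Age and the sex make-up of the libraries cannot be told apart.

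In what follows, values written in a row are those of replicates 1 to 3. Because RPKM is scaled by length, levels can be ordered between genes. In infant libraries the order of mean RPKM was Ednrb, Ace, Ece1, Agt, Edn1, Ednra, Ptgs1, Ptgis and Ptgs2, and in young adult libraries it was Ace, Ednrb, Ece1, Edn1, Ptgs1, Ptgis, Ptgs2, Ednra and Agt. Among infant neighbours in that order, Ece1 and Agt, Agt and Edn1, Edn1 and Ednra, Ednra and Ptgs1, and Ptgs1 and Ptgis overlapped. Among young adult neighbours only Ace and Ednrb, and Edn1 and Ptgs1, overlapped. The order uses the transcript row of Ace with the higher mean. In young adult libraries the mean of the other Ace row was just below that of Ednrb. Ednrb and Ace ranked at or above the percentiles 98.93 and 98.49 of all genes in every library, and Agt spanned the percentiles 2.321 to 97.04.

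**Figure D1:**
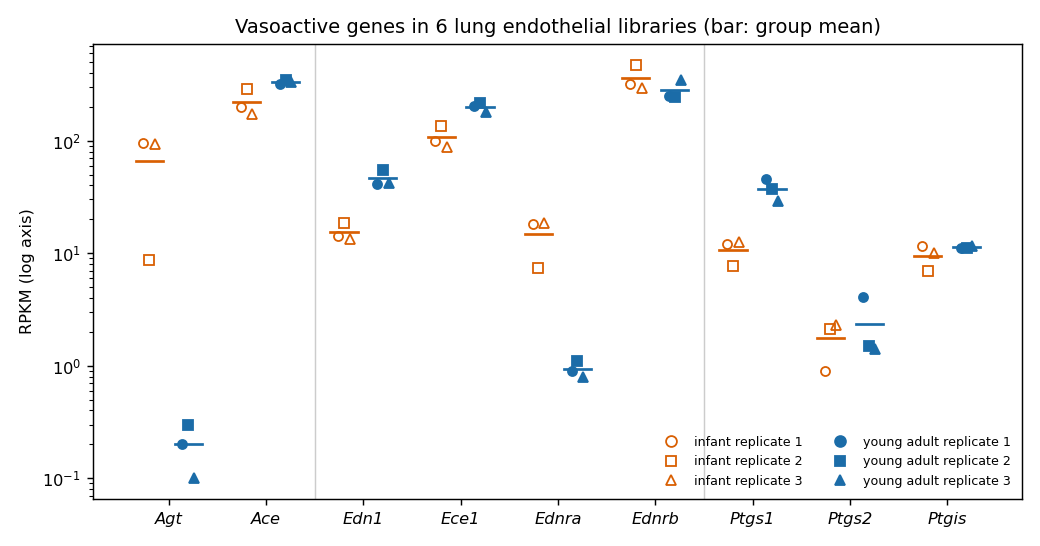
RPKM of the 9 vasoactive genes (log axis) in 3 infant libraries (open orange) and 3 young adult libraries (filled blue), with a bar at each group mean. Agt and Ednra lie lower, and Edn1, Ece1 and Ptgs1 higher, in every young adult library, while Ednrb, Ptgs2 and Ptgis overlap between the ages.

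Agt, the only precursor of the angiotensin peptides, showed the largest change of the 9 genes. It spans chr8:124556587-124569706 on GRCm38.p6. Its level was 95.7, 8.7 and 93.9 RPKM across infant replicates 1 to 3, against 0.2, 0.3 and 0.1 RPKM across young adult replicates 1 to 3. Infant replicate 2 was far below the other infant libraries and still above every young adult library, all of which were near the rounding step of the table. The mean went from 66.1 ± 49.7 (SD, n = 3) to 0.2 ± 0.1 RPKM (SD, n = 3). On the log2(RPKM + 1) scale Agt fell by 5.22 (SE 0.80, 95% interval -7.07 to -3.37, limma adjusted p 0.00521). Without infant replicate 2 the log2 fold change was -6.32, and over the 6 fits that each left out 1 library it ran from -6.32 to -4.66, called in all 6. Fibroblast and mural markers moved with Agt across the libraries, infant replicate 2 included, and their part in the fall of Agt was not tested.

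Ace, the enzyme that makes angiotensin II and breaks down bradykinin, was among the most abundant transcripts at both ages. It lies at chr11:105967948-105989964, and the table held 2 transcript rows for it. In the row with the higher mean, NM_009598, Ace reached 199.8, 288.8 and 172.7 RPKM in the infant libraries, against 322.1, 348.3 and 334.1 RPKM in the young adult libraries. The young adult libraries lay close together and above every infant library. Mean RPKM was 220.4 ± 60.7 and 334.8 ± 13.1 (SD, n = 3 each), a ratio of 1.52. The log2 fold change was 0.63 (SE 0.20, 95% interval 0.18 to 1.09, limma adjusted p 0.0497), under the fold threshold, so Ace was not called. Without infant replicate 2 it was 0.85 with an adjusted p of 0.00139, which passes both thresholds. In every other fit that left out 1 library the limma adjusted p of Ace was above 0.05, from 0.117 to 0.151.

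The transcript rows of Ace share most of their sequence. NM_009598 is a short form of 14 exons that starts inside the gene, and NM_207624 is the long form of 25 exons. They have 2222 exonic bases in common, 91.9% of the short and 45.3% of the long form in GENCODE vM21, so reads over those bases cannot be assigned to either. The long form had 179.0, 241.5 and 142.9 RPKM in the infant libraries, against 260.1, 298.5 and 278.4 RPKM in the young adult libraries, a log2 fold change of 0.60 (limma adjusted p 0.0572 with every row as a feature). Both rows gave higher young adult values in all libraries and neither was called.

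The other 13 tested genes of the renin-angiotensin list gave 3 calls. Agtr1a, the main receptor for angiotensin II on vessels, had 1.4, 1.5 and 2.0 RPKM in the infant libraries, against 0.1, 0.2 and 0.1 RPKM in the young adult libraries and fell by 1.21 on the log2 scale (SE 0.15, limma adjusted p 0.00245). Enpep, an aminopeptidase that degrades angiotensin II, had 4.5, 3.0 and 4.9 against 0.8, 1.5 and 2.0 RPKM and fell by 1.09 (SE 0.22, limma adjusted p 0.0135). Agtrap, whose product promotes the internalization of the type 1 receptor, had 7.8, 10.1 and 8.4 against 19.2, 15.4 and 20.4 RPKM and rose by 0.98 (SE 0.14, limma adjusted p 0.00386). The groups did not overlap for any of these genes, though Agtr1a was low at both ages and passed the filter only through its infant values. The call of Enpep was lost without infant replicate 1 (-1.03, adjusted p 0.0543), infant replicate 3 (-0.98, adjusted p 0.05 when rounded) and young adult replicate 2 (-1.12, adjusted p 0.0530).

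Atp6ap2, which encodes the prorenin receptor and a part of the vacuolar proton pump, had the highest mean over all 6 libraries of that list after Ace, although Agt was higher in infant replicates 1 and 3, at 36.8, 41.6 and 39.9 RPKM in the infant libraries, against 38.2, 42.5 and 42.1 RPKM in the young adult libraries. Its groups overlapped and its log2 fold change was 0.05 (limma adjusted p 0.720). In all, 1 gene of the 15 tested was called higher and 3 lower, and the median was -0.28 on the log2 scale. The share called was 26.7%, against 11.4% of all tested genes (3.33% higher and 8.1% lower). Renin itself (Ren1) and the receptors Agtr1b, Agtr2 and Mas1 were not analysed here.

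Edn1, the endothelin peptide that EC themselves secrete, showed the largest rise in the endothelin system. It spans chr13:42301476-42307990. The level of Edn1 was 14.3, 18.6 and 13.3 RPKM across infant replicates 1 to 3, against 41.2, 55.1 and 42.2 RPKM across young adult replicates 1 to 3. Every young adult library was above every infant library, with the lowest young adult value at 41.2 and the highest infant value at 18.6 RPKM. Mean RPKM was 15.4 ± 2.82 and 46.2 ± 7.75 (SD, n = 3 each), a ratio of 3.0. The log2 fold change was 1.53 (SE 0.16, 95% interval 1.16 to 1.90, limma adjusted p 0.00149), and it stayed between 1.39 and 1.66 and was called in all 6 fits that left out 1 library. Tested against the fold threshold itself with limma's treat, Edn1 had an adjusted p of 0.0654.

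Ece1, the protease that releases the active endothelin peptide, was abundant at both ages and rose with a smaller fold. The gene lies at chr4:137862237-137965229. Ece1 had 100, 136 and 87 RPKM in the infant libraries, against 202.6, 215.4 and 180.7 RPKM in the young adult libraries. No infant library reached the lowest young adult value. Its mean went from 107.7 ± 25.4 to 199.6 ± 17.6 RPKM (SD, n = 3 each), a ratio of 1.85, and its log2 fold change was 0.91 (SE 0.18, 95% interval 0.50 to 1.32, limma adjusted p 0.0121). This lies close to the fold threshold. The call was lost without infant replicate 3 (0.77, adjusted p 0.0382), without young adult replicate 1 (0.89, adjusted p 0.0515) and without young adult replicate 2 (0.85, adjusted p 0.0596), and also when the globin genes were left out of the library sums (0.80) or the libraries were quantile normalized (0.75).

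Ednra, the endothelin receptor known for its role on smooth muscle, fell in the same libraries as Agt and over a narrower range. It lies at chr8:77663029-77724452. Ednra had 18.3, 7.4 and 18.6 RPKM across infant replicates 1 to 3, against 0.9, 1.1 and 0.8 RPKM across young adult replicates 1 to 3. Infant replicate 2 was again the lowest of the infant libraries, and the groups were far apart. Mean RPKM was 14.8 ± 6.38 and 0.933 ± 0.153 (SD, n = 3 each), 15.8 times higher in infant EC. The log2 fold change was -2.93 (SE 0.31, 95% interval -3.64 to -2.22, limma adjusted p 0.00149), from -3.33 without infant replicate 2 to -2.72 without infant replicate 3. The mural and fibroblast marker sums were likewise lowest in replicate 2 among infant libraries and lower still in young adult libraries, and their part in the fall of Ednra was not tested.

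**Figure D2:**
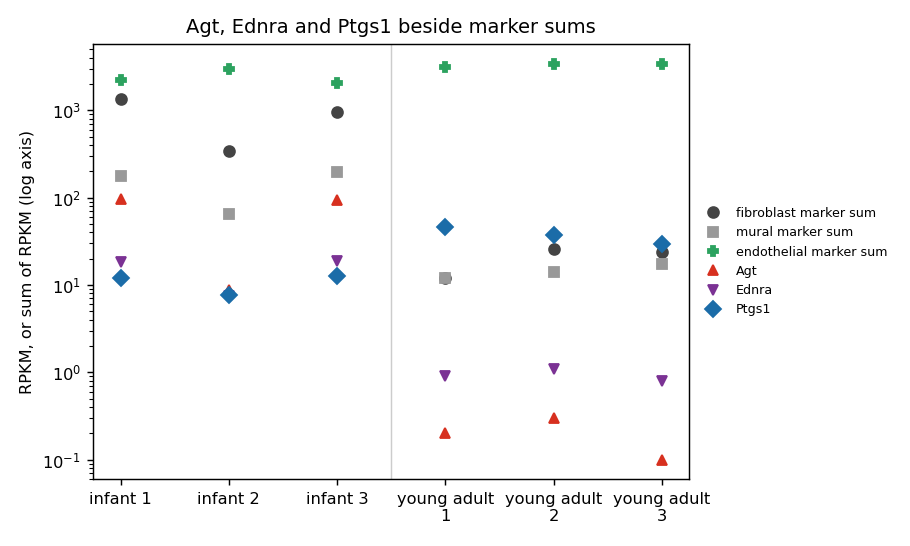
RPKM of Agt, Ednra and Ptgs1 and summed RPKM of 11 fibroblast, 10 mural and 11 endothelial markers (log axis) in each library, with no error since each point is 1 library. Infant replicate 2 is the lowest infant library for Agt, Ednra and both the fibroblast (341.2) and mural (64.1) sums, while the endothelial sum is highest there among infant libraries (2962.5).

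Ednrb, the endothelin receptor of EC, had the highest mean infant level of the 9 genes. It spans chr14:103814615-103844508 and is known as a marker of aerocytes, the large capillary EC of the gas exchange surface. Ednrb had 318.1, 473.6 and 292.4 RPKM in the infant libraries, against 250.7, 245.3 and 345.6 RPKM in the young adult libraries. Young adult replicate 3 lay above 2 of the 3 infant libraries, so the groups overlapped. Means were 361.4 ± 98.0 and 280.5 ± 56.4 RPKM (SD, n = 3 each), and the log2 fold change was -0.35 with a 95% interval of -0.87 to 0.17 (limma adjusted p 0.282), which leaves room for a fall of moderate size and for a small rise. A second transcript row, which shares 96.0% of its exonic bases with this one, gave a log2 fold change of -0.35 as well.

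The sum of 7 other aerocyte markers, of which Kdr also counts as a general endothelial marker, was 1455.7, 2307.1 and 1370.8 RPKM across infant replicates 1 to 3, against 1556.9, 1673.8 and 2317.3 RPKM across young adult replicates 1 to 3. It was highest in infant replicate 2 and young adult replicate 3, the libraries in which Ednrb was highest within its age group. With limma 0 of the 7 were called, and 3 had an unadjusted p under 0.05. Their part in the spread of Ednrb was not tested.

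The ratio of the receptors was higher in every young adult library than in any infant library. In infant replicates 1 to 3 the RPKM of Ednrb was 17.4, 64.0 and 15.7 times that of Ednra, and in young adult replicates 1 to 3 it was 279, 223 and 432 times. The young adult ratios are imprecise, since Ednra was only 0.8 to 1.1 RPKM there and values were rounded to 1 decimal. Ednrb itself overlapped between the ages, so the ratio mainly restates the fall of Ednra. On the scale of log2 ratios of RPKM + 1 the means were 4.59 ± 1.07 and 7.17 ± 0.37 (SD, n = 3 each), a difference of 2.58. An exact two-sided permutation test gave p = 0.1, the smallest value that 3 against 3 libraries allow.

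Of the other endothelin genes, Edn3, a ligand that prefers EDNRB, had 3.4, 1.2 and 3.2 RPKM in the infant libraries, against 0.1, 0.2 and 0.2 RPKM in the young adult libraries. It fell by 1.56 on the log2 scale (SE 0.26, limma adjusted p 0.00721), and, as for Agt and Ednra, infant replicate 2 was the lowest infant library. Edn3 passed the filter only through its infant values. The converting enzyme Ece2 stayed between 2.6 and 4.8 RPKM (log2 fold change 0.38, limma adjusted p 0.0812), and Kel, which can also release endothelin peptides, between 0 and 1.4 RPKM. In the endothelin list 2 of 7 tested genes were called higher and 2 lower, and 3 were not called, with a median of -0.35. The share called was 57.1%, against 11.4% of all tested genes (3.33% higher and 8.1% lower). The called genes moved in opposite directions within the pathway, the EC-derived ligand and its enzyme upward and EDNRA and the second ligand downward. Edn2 was not analysed here.

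**Figure D3:**
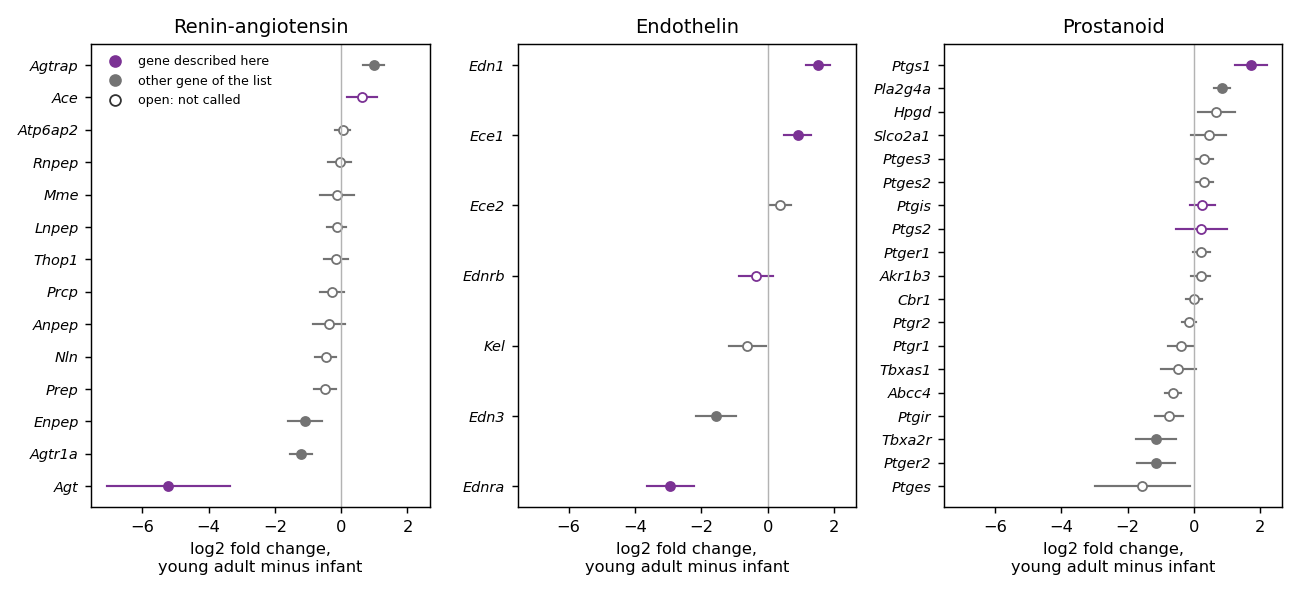
Log2 fold change, young adult minus infant, on the log2(RPKM + 1) scale with its 95% interval for tested genes of the renin-angiotensin, endothelin and prostanoid lists. Filled points passed the test and purple marks the 9 genes described here. Agt at -5.22 and Ednra at -2.93 lie farthest to the left, and Ptgs1 at 1.71 and Edn1 at 1.53 farthest to the right.

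Ptgs1, the cyclooxygenase usually called constitutive, showed the largest rise of the 9 genes. It spans chr2:36216742-36258593. Ptgs1 had 12.0, 7.7 and 12.5 RPKM in the infant libraries, against 45.5, 37.3 and 29.3 RPKM in the young adult libraries. All 3 young adult libraries lay well above the infant libraries. Mean RPKM was 10.7 ± 2.64 and 37.4 ± 8.10 (SD, n = 3 each), a ratio of 3.48. The log2 fold change was 1.71 (SE 0.21, 95% interval 1.23 to 2.20, limma adjusted p 0.00246) and stayed between 1.51 and 1.87, called in all 6 fits that left out 1 library. With treat its adjusted p was 0.0733.

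Platelets are rich in PTGS1, and the 4 platelet markers in the table summed to 4.7, 16.3 and 9.6 RPKM in the infant libraries, against 7.4, 14.2 and 11.4 RPKM in the young adult libraries, with overlapping groups, 0 of 4 called by limma and 0 with an unadjusted p under 0.05. Venous EC markers were called higher for 3 of 5 genes and lower for 1, with sums of 65 to 76.7 RPKM in the infant libraries, against 176.8 to 264.3 RPKM in the young adult libraries. General capillary markers were called higher for 3 of 7, with sums of 548.1 to 896.4 against 1083.1 to 1411.5 RPKM. The venous and general capillary sums were higher in young adult libraries, as were Ptgs1, Edn1 and Ece1. Arterial markers were higher for 3 of 6 tested genes (0 called) and lower for 3 (1 called). Their sums overlapped, with 150.5 to 236.7 RPKM in the infant libraries, against 163.3 to 248.7 RPKM in the young adult libraries. Within the infant group replicate 2 had the highest general capillary sum and the highest Edn1 and Ece1. It also had the lowest venous sum, the lowest arterial sum and the lowest Ptgs1. Across young adult replicates 1 to 3 the venous and general capillary sums fell, as did Ptgs1. Edn1, Ece1 and the arterial sum were highest in replicate 2. The part of platelets and of these EC subtypes in the rises was not tested.

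Ptgs2, the inducible cyclooxygenase, was low throughout. It spans chr1:150100031-150108234. Ptgs2 had 0.9, 2.1 and 2.3 RPKM in the infant libraries, against 4.1, 1.5 and 1.4 RPKM in the young adult libraries. The groups overlapped, with the highest value in young adult replicate 1 and the lowest in infant replicate 1. Means were 1.77 ± 0.757 and 2.33 ± 1.53 RPKM (SD, n = 3 each), and the log2 fold change was 0.22 (95% interval -0.55 to 0.98, limma adjusted p 0.655). Its sign turned when infant replicate 1 (-0.03) or young adult replicate 1 (-0.13) was left out, so no direction can be given.

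Within each library Ptgs1 exceeded Ptgs2. The RPKM of Ptgs1 was 13.3, 3.67 and 5.43 times that of Ptgs2 in infant replicates 1 to 3 and 11.1, 24.9 and 20.9 times in young adult replicates 1 to 3. Infant replicate 1 lay above young adult replicate 1 on this plain ratio. As log2 ratios of RPKM + 1, which damp the low Ptgs2 values, the groups did not overlap, with means of 2.10 ± 0.65 and 3.59 ± 0.38 (SD, n = 3 each) that differed by 1.496. The exact permutation test, two-sided, gave p = 0.1 again.

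**Figure D4:**
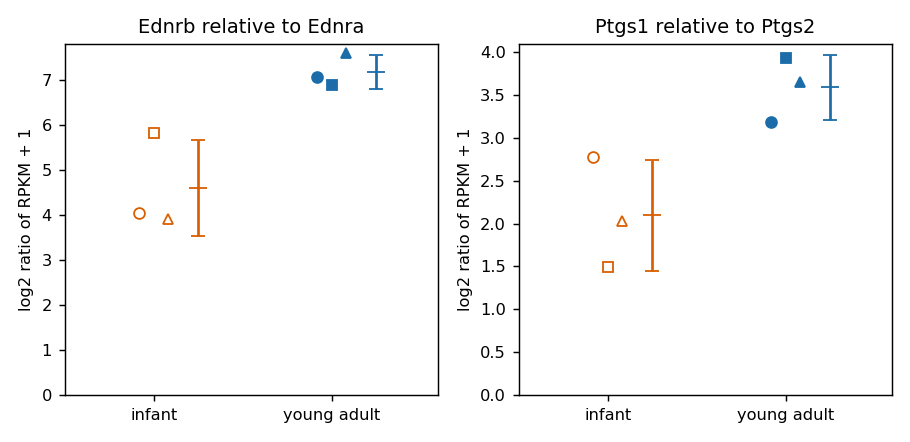
Log2 ratio of RPKM + 1 of Ednrb to Ednra and of Ptgs1 to Ptgs2 in each library, with the group mean and SD (n = 3) beside the points. Infant libraries lie from 3.90 to 5.82 and young adult libraries from 6.87 to 7.59 for the receptors, and from 1.49 to 2.77 and 3.19 to 3.94 for the cyclooxygenases.

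Ptgis, the prostacyclin synthase, was not called. The gene spans chr2:167203194-167252150. Ptgis had 11.5, 6.9 and 10.1 RPKM in the infant libraries, against 11.1, 11.2 and 11.6 RPKM in the young adult libraries. The young adult values were nearly equal and overlapped with infant replicate 1. Means were 9.5 ± 2.36 and 11.3 ± 0.265 RPKM (SD, n = 3 each), and the log2 fold change was 0.25 with a 95% interval of -0.13 to 0.64 (limma adjusted p 0.283). The upper end of that interval lies below the lower end for Ptgs1, 1.23, though the difference between both genes was not itself tested.

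Around these enzymes, 2 of the 16 other tested genes of the prostanoid list were called lower and 1 higher. Pla2g4a, the phospholipase that frees arachidonic acid for the cyclooxygenases, had 2.6, 3.4 and 2.8 RPKM in the infant libraries, against 6.2, 5.9 and 6.0 RPKM in the young adult libraries and rose by 0.84 (SE 0.11, limma adjusted p 0.00304). Tbxa2r, the receptor for the vasoconstrictor thromboxane, had 22.5, 19.5 and 20.2 against 6.5, 7.0 and 14.5 RPKM and fell by 1.15 (SE 0.26, limma adjusted p 0.0181). Ptger2, a prostaglandin E2 receptor that relaxes vessels, had 2.0, 0.6 and 1.8 against 0, 0.1 and 0.1 RPKM and fell by 1.16 (SE 0.25, limma adjusted p 0.0157). None of these groups overlapped, though Ptger2 passed the filter only through infant values. Pla2g4a was under the fold threshold without infant replicate 1 (0.78), with equal library sums without globin genes (0.76) and with a pseudocount of 5 (0.48). The calls of Tbxa2r and Ptger2 were lost without infant replicate 1 (adjusted p 0.0657 and 0.0626), infant replicate 3 (0.0521 and 0.0592), young adult replicate 1 (0.0669 and 0.0616) and young adult replicate 2 (0.0785 and 0.0610).

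The 3 most abundant genes of the list, Hpgd, Slco2a1 and Akr1b3, were not called. Hpgd, the dehydrogenase that inactivates prostaglandins, had 564.5, 953.4 and 624.8 RPKM in the infant libraries, against 1158.2, 1205 and 980.5 RPKM in the young adult libraries. Each young adult library was above each infant library, by a log2 fold change of 0.67 (SE 0.24, limma adjusted p 0.0729), which became 0.90 with an adjusted p of 0.00355 without infant replicate 2. No other fit that left out 1 library called Hpgd, with limma adjusted p from 0.115 to 0.208. Slco2a1, the transporter that brings prostaglandins into the cell, had 98.4 to 186.8 RPKM in the infant libraries, against 167.7 to 178.7 RPKM in the young adult libraries, which overlapped (0.45, limma adjusted p 0.180). Akr1b3, a reductase able to form prostaglandin F2alpha, had 55.9 to 62.5 RPKM in the infant libraries, against 60.4 to 77.6 RPKM in the young adult libraries, which overlapped (0.20, limma adjusted p 0.247).

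Receptors and synthases of single prostanoids were mostly low. The prostacyclin receptor Ptgir had 0.8, 0.5 and 1.2 RPKM in the infant libraries, against 0.1, 0 and 0.1 RPKM in the young adult libraries, a log2 fold change of -0.77 (SE 0.18, limma adjusted p 0.0222) that was under the fold threshold and was called only without infant replicate 2 among the fits that left out 1 library (-0.90). Ptgir passed the filter only through infant replicate 3, and could not be fitted without it. Ptger1, another prostaglandin E2 receptor, had 2.7 to 3.5 against 3.6 to 3.8 RPKM (0.21, limma adjusted p 0.190). Ptges, the inducible prostaglandin E synthase, was singled out after its values were seen, since it had 10.2 and 9.4 RPKM in infant replicates 1 and 3, 0.9 RPKM in infant replicate 2 and 0.8, 1.0 and 1.4 RPKM in young adult libraries. Its log2 fold change of -1.56 (SE 0.62, limma adjusted p 0.0995) became -2.40 with an adjusted p of 2.37e-05 without infant replicate 2. No other fit that left out 1 library called Ptges, and its limma adjusted p reached 0.277 without infant replicate 1. The prostanoid list as a whole had 2 of 19 tested genes called higher and 2 lower, and its median was 0.20 on the log2 scale. The share called was 21.1%, against 11.4% of all tested genes (3.33% higher and 8.1% lower). Leaving out infant replicate 1 turned the count of 4 called genes into 1, and leaving out infant replicate 2 turned it into 7. It was 2 when infant replicate 3, young adult replicate 1 or young adult replicate 2 was left out. Ptgds, Hpgds, Ptger3, Ptger4, Ptgfr, Ptgdr and Ptgdr2 were not analysed here.

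Without the 9 genes, the 3 lists held 32 tested genes, of which 2 were called higher and 5 lower, 21.9% in all against 11.4% of all tested genes (3.33% higher and 8.1% lower), and their median was -0.23 on the log2 scale against -0.07. Of the 5 that fell, Agtr1a, Edn3 and Ptger2 were under 1 RPKM in every young adult library.

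**Figure D5:**
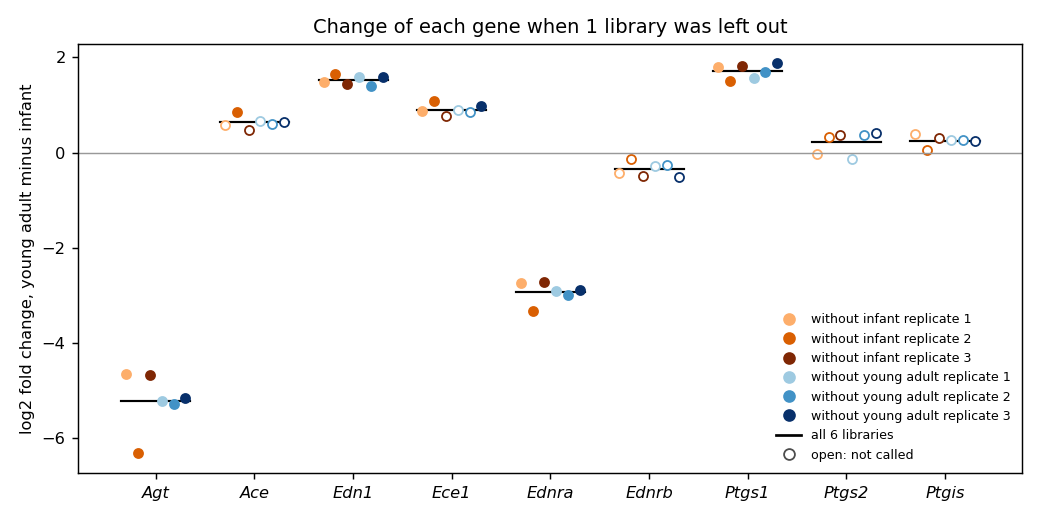
Log2 fold change of each of the 9 genes, young adult minus infant, when 1 of the 6 libraries was left out (points, filled where called) and with all 6 (black bar). Agt, Edn1, Ednra and Ptgs1 were called in all 6 fits, Ece1 in 3, Ace in 1 (without infant replicate 2), and Ednrb, Ptgis and Ptgs2 in 0.

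The genes whose profile over the 6 libraries came closest to each of the 9 were found among 6976 tested genes that averaged 5 RPKM or more, by the root mean square difference of log2(RPKM + 1) centred on the mean of each gene. For Agt these were Eln (0.26), Ltbp2 (0.33) and P2ry14 (0.36). Eln, for instance, had 641.1, 48.1 and 414.5 RPKM in the infant libraries, against 6.1, 8.7 and 6.3 RPKM in the young adult libraries, with the same dip in infant replicate 2. For Ednra they were Tubb4a (0.081), Actg2 (0.12) and Prelp (0.15). The closest profiles to Edn1 were those of Arl4d (0.098), Sqrdl (0.13) and Slc3a2 (0.14), and the closest to Ece1 were Mospd2 (0.057), Fabp4 (0.060) and Scly (0.072).

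Ace was closest to Efnb1 (0.057), Egfl7 (0.058) and Gsdmd (0.066), and Ednrb to Tspan15 (0.042), Pcdhac1 (0.073) and Pcdha12 (0.090), of which the protocadherins share exons with each other. Ptgs1 was closest to Specc1 (0.17), Car14 (0.23) and Ackr3 (0.25). Ptgis lay nearest to Arid5a (0.067), Gm13123 (0.073) and Bmyc (0.080), and Ptgs2 nearest to Bik (0.27), Ncoa7 (0.28) and Tmpo (0.28). Differences were thus larger for Agt and Ptgs2 than for Ace, Ece1 or Ednrb. These likenesses rest on 6 libraries in 2 age groups and describe shape alone.

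The library kit did not keep the strand of a read, so transcripts on the opposite strand cannot be separated where they share bases with an exon. In GENCODE vM21 this holds for Edn1 with Gm47118 (35 bases), Ednra with 4933431K23Rik (91 bases), Ptgs1 with Gm43621 (148 bases) and Ace with Gm11651. The longest single exon of Gm11651 that overlaps Ace shares 173 bases with it. The table gave no values per exon, so the share of reads from those bases is unknown.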

How the data were processed

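RNA-seq of sorted lung endothelial cells was analysed in 3 infant and 3 young adult libraries, grouped by their titles and described as independent biological replicates. The authors amplified 10 ng of total RNA with a SMARTer Ultra Low kit, aligned reads to mm10 with STAR and tested RefSeq genes with DESeq2 (versions not given in the sources used here). They deposited RPKM per transcript, rounded to 1 decimal, in 17241 rows. Read counts were not used here, so reads per library are not known here, although the methods state a mean coverage, and no counting error is attached to values. An abundant transcript lowers the RPKM of all others in its library.

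From these RPKM values the row with the highest mean was kept per gene (2842 of 12623 genes had several), 24 rows whose symbol had become a date were restored by accession, and limma 3.58.1 in R 4.3.3 was fitted to log2(RPKM + 1) with an intensity trend and Benjamini-Hochberg adjustment over the 12458 genes that reached an RPKM of 1 in any library. The pseudocount understates the change of low genes. The script was tested on simulated data with 12458 genes for the comparison of the ages: 94% of 200 genes changed by 1.5 on the log2 scale were recovered, and 5 unchanged genes were called. The changed genes were drawn from those averaging 5 RPKM or more, so the 94% does not cover lower genes. Each gene had normal noise of the same spread in every library, so no simulated library stood apart.

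The genes and lists were chosen with earlier results of these data known. The text names the 9 genes, every called gene, the 3 most abundant genes and the receptors of each list, and the 3 nearest profiles per gene. Ptges, Ece2, Kel and Nppc were added after their values were seen, and 1 gene of the lists is counted but not reported here. Gene positions and promoters are from RefSeq on GRCm38.p6, the same coordinates as mm10. Transcripts are from GENCODE vM21. Alternatives were pseudocounts of 0.1 and 5, looser and stricter filters, 4 other scalings, array weights, robust or untrended eBayes, a replicate block, other uses of transcript rows, limma's treat, the adjusted p alone, and leaving out each library.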

Additional observations from a re-analysis of the deposited data

How the results depend on the processing

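Of the 9 genes, 4 to 6 were called under each alternative except treat, limma's test against the fold threshold, which called 2 (Agt and Ednra), and 4 to 6 when 1 library was left out. Agt and Ednra were called in all 6 fits that left out 1 library and under all 16 other alternatives, and Edn1 and Ptgs1 under all but treat. The renin-angiotensin list went from 4 calls to 1 with a pseudocount of 5, 1 with treat and 7 by the adjusted p alone. The endothelin list went from 4 to 1 with treat. The prostanoid list went from 4 to 2 with a pseudocount of 5, 7 with array weights and 0 with treat, where 1 of its 19 genes had an unadjusted p under 0.05, and ran from 1 to 7 when 1 library was left out. The kinin, adrenomedullin and natriuretic peptide list went from 5 to 1 with a pseudocount of 5, 1 with treat, and from 2 to 7 when 1 library was left out. The cause of these moves was not tested. The fold change of Ptgs2 reversed to -0.03 without infant replicate 1 and to -0.13 without young adult replicate 1 (range -0.13 to 0.41 when 1 library was left out), and that of Atp6ap2 from 0.05 to -0.052 when libraries were set to equal sums without globin genes and to -0.0039 with quantile normalization.

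Over all genes, 1424 were called, against 1957 with a pseudocount of 0.1, 578 with a pseudocount of 5, 176 with treat and 3176 by the adjusted p alone, and 842 to 1874 when 1 library was left out. Without infant replicate 1 the count was 927, without infant replicate 3 it was 949, and without young adult replicates 1 and 2 it was 842 and 867. Quantile normalization moved the median over all genes from -0.07 to 0.04 and the share of higher calls from 29.1 to 46.5%, and a pseudocount of 5 moved that share to 41.5%. With a replicate block 5 of the 9 genes and 1371 of all genes were called, and no call among the 9 genes changed. Deviations from the group means of libraries with the same number correlated at 0.03, -0.11 and -0.02, so the numbers gave no sign of pairing. With 3 libraries a group and RPKM rounded to 1 decimal, changes of genes under about 1 RPKM are imprecise, and the number of reads behind each value is not known here.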

Other observations

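Genes of other vasoactive peptides also differed between the ages. In a list of kinin, adrenomedullin and natriuretic peptide genes, 3 of 11 tested genes were called higher in young adult EC and 2 lower, 45.5% in all against 11.4% of all tested genes (3.33% higher and 8.1% lower), and the median was 0.34 on the log2 scale against -0.07. Npr3, which clears natriuretic peptides, had 2.2, 3.2 and 1.6 RPKM in the infant libraries, against 21.4, 19.3 and 12.1 RPKM in the young adult libraries and rose by 2.47 on the log2 scale (SE 0.24, limma adjusted p 0.00123), called in all 6 fits that left out 1 library. Npr1, the receptor for atrial natriuretic peptide, had 17.5, 21.1 and 15.2 against 35.8, 31.2 and 31.8 RPKM and rose by 0.85 (SE 0.13, limma adjusted p 0.00527), under the fold threshold without infant replicate 3 (0.74) or young adult replicate 1 (0.79), with equal library sums without globin genes (0.75) and with a pseudocount of 5 (0.73). Bdkrb2, the receptor for bradykinin, had 2.7, 3.5 and 2.1 against 4.7, 5.5 and 7.2 RPKM and rose by 0.85 (SE 0.18, limma adjusted p 0.0155). Its call was lost without infant replicate 1 (0.85, adjusted p 0.0533), infant replicate 3 (0.72), young adult replicate 2 (0.88, adjusted p 0.0594) or young adult replicate 3 (0.71), and with equal library sums without globin genes (0.77) or a pseudocount of 5 (0.47).

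The dilator peptide adrenomedullin (Adm) went the other way, with 4.1, 3.1 and 2.7 RPKM in the infant libraries, against 1.1, 0.8 and 0.8 RPKM in the young adult libraries, and fell by 1.17 (SE 0.15, limma adjusted p 0.00312). Its receptor Calcrl was far more abundant, with 879.5 to 1310.5 RPKM in the infant libraries, against 1174.8 to 1379.2 RPKM in the young adult libraries, which overlapped (0.34, limma adjusted p 0.282). Ramp2, the partner that makes Calcrl an adrenomedullin receptor, had 258.3, 448.5 and 258.8 against 463.3, 505.3 and 555.7 RPKM (0.70, limma adjusted p 0.0619) and was called without infant replicate 2 (0.97). No other fit that left out 1 library called Ramp2 (limma adjusted p 0.121 to 0.178). Ramp1, the partner for calcitonin gene-related peptide, had 2.6, 1.3 and 2.9 against 0.1, 0.3 and 0.9 RPKM and fell by 1.19 (SE 0.27, limma adjusted p 0.0182), though 4 of the 6 fits that left out 1 library did not call it, those without infant replicates 1 (-1.10) and 3 (-1.04) and young adult replicates 1 (-1.02) and 2 (-1.14). Ramp1 passed the filter only through its infant values. Npr2, the receptor for C-type natriuretic peptide, had a log2 fold change of -0.79 (limma adjusted p 0.0349), under the fold threshold, and -1.03 without infant replicate 2. No other fit that left out 1 library called Npr2 (limma adjusted p 0.0605 to 0.118). Its ligand gene Nppc was under the filter, listed at 0 in all infant libraries and at 0 to 0.3 RPKM in young adult libraries. Kng1, Bdkrb1, Nppa and Nppb were not analysed here.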
